A study of Homo sapiens with 32 samples.

Results

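The 31 genes described here carry out base excision repair and nucleotide excision repair, and they were taken from a list of the pathways' core factors. The choice was made with earlier results of these data known. An N6-methyladenosine (m6A) peak was given to a gene when it overlapped the gene body by at least 1 base in the RefSeq table of GRCh38.p14, on either strand. By this rule 29 of the 31 genes held a peak in at least 1 of 12 peak lists, out of 19156 genes with a peak among 59084 RefSeq genes on chromosomes 1 to 22 and X. Base excision repair removes small base lesions: a DNA glycosylase cuts out the damaged base, an endonuclease opens the strand at the abasic site, and a polymerase and a ligase close the gap. Nucleotide excision repair removes bulky lesions such as ultraviolet photoproducts, found either across the genome by XPC and the DDB complex or at stalled RNA polymerase by the Cockayne syndrome proteins, after which the helicases of TFIIH open the DNA and a pair of nucleases cut out the damaged stretch. m6A is written on nascent RNA by the METTL3 and METTL14 complex, and many transcripts carry it near stop codons and in long internal exons.

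The lists came from MeRIP-seq, an assay that enriches methylated RNA fragments by immunoprecipitation, applied to chromatin-associated RNA. The METTL3 knockdown groups carried a short hairpin RNA against METTL3, the catalytic subunit of the methyltransferase. The control groups had the genotype label WT. A control hairpin was named in the sample titles of the ovarian lines and, for the colorectal lines, in the names of the peak lists. OVCAR8 and SKOV3 are established ovarian cancer lines with 2 knockdown lists and 2 control lists each, and LOVO and RKO are established colorectal cancer lines with 1 knockdown list and 1 control list each, so the colorectal comparisons have no replicate check. The sources used here do not give the number of hairpins or clones behind a group. They do not say either whether replicates came from separate cultures, so the p-values below rest on differences between lists alone, which may be technical. LOVO and RKO, with 1 list per group, add no spread within a group to these p-values. A peak requires that the transcript is there to be methylated. Input libraries were not analysed here, and fewer methylated copies and less RNA of a gene cannot be told apart.

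Ovarian lists held 15484 to 26865 peaks after knockdown, against 28237 to 29102 in control, and colorectal lists held 31060 and 34015 after knockdown, against 36242 and 37398 in control. No source used here gives read totals. The labels of several lists were at odds with the members' peaks. Of the member peaks in the lists labelled OVCAR8 knockdown, 96.0% were also called in SKOV3 control and 74.4% in OVCAR8 control (each a mean over 4 pairings). Of those in the lists labelled SKOV3 knockdown, 78.9% were also called in OVCAR8 control and 61.5% in SKOV3 control. For the list labelled RKO knockdown the share was 65.7% in RKO control and 59.7% in LOVO control, and for LOVO knockdown it was 70.5% in LOVO control and 67.9% in RKO control. In the other direction, 43.6% of the member peaks in RKO control were called in RKO knockdown, 53.5% in LOVO knockdown and 68.3% in LOVO control. Of those in LOVO control, 64.0% were called in LOVO knockdown, 48.8% in RKO knockdown and 81.4% in RKO control. Over the 6 ovarian marker genes the summed peaks were 0 and 0 in the lists labelled OVCAR8 knockdown against 25 and 25 in OVCAR8 control, 18 and 17 against 3 and 3 in SKOV3, 8 against 15 in LOVO and 1 against 16 in RKO, and WT1, SOX17 and EMX2 were at 0 in all 12 lists. The 8 colorectal markers held no peak in any ovarian list, 25 against 23 in LOVO, and 0 against 3 in RKO, where CDX2 alone was marked. The part of line identity in the results was not tested, and the groups below are those of the labels. Counts over the members are also given with the knockdown lists of OVCAR8 and SKOV3 exchanged; a gene's mean difference over the 4 lines is the same either way, because each ovarian list keeps its weight.

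Peaks at the start of a gene bear on 3 members, whose sequence from 250 bases before to 50 bases after the annotated start is shown because peaks of at least 4 lists reached into it. Capitals mark the bases covered on the gene's strand by peaks of at least 2 lists, and the sequences are RefSeq's for GRCh38.p14, written 5′ to 3′ on the gene's strand. The windows are chr3:9749702-9750001 on the plus strand for OGG1, chr3:14178552-14178851 on the minus strand for XPC and chr12:103965622-103965921 on the plus strand for TDG.
OGG1: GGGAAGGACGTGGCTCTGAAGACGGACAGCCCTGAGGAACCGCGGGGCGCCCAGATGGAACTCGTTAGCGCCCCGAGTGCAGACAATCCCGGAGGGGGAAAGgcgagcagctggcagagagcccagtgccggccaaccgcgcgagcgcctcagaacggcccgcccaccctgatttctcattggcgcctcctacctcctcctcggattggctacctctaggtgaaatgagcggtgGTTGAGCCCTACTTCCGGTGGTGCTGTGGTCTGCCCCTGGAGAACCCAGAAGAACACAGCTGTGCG
XPC: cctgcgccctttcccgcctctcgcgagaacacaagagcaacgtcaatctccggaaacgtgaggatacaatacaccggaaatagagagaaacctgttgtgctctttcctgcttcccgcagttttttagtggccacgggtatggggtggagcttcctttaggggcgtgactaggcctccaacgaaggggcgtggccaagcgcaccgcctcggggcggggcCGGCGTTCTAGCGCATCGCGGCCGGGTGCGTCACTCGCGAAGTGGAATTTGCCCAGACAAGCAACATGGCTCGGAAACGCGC
TDG: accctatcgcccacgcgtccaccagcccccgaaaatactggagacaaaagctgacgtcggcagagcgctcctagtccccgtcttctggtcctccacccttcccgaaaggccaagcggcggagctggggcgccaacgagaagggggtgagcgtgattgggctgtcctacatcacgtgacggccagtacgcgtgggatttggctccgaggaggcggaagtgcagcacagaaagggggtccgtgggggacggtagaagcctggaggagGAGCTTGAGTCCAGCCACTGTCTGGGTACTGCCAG
In XPC the covered stretch was the last 82 bases, and between 68 and 82 bases were covered in each of 10 lists and none in the LOVO knockdown and LOVO control lists. In TDG the cover was 35 bases in LOVO knockdown against 32 in LOVO control, and 37 in RKO knockdown against 32 in RKO control, with none in the 8 ovarian lists. In OGG1 the knockdown list covered all 300 bases in LOVO and 119 in RKO, against 0 in both control lists, and the ovarian lists covered between 0 and 66 bases. The first block of capitals in OGG1 thus comes from the colorectal knockdown lists, which have no replicates, and the second from several lists. The letters GGAC, the commonest core of m6A sites in mammals, were counted on both strands. They occurred 2 times on the gene strand of the OGG1 window and 0 times on the other, 0 and 0 times in XPC, and 1 and 6 times in TDG. Of 35116 RefSeq promoter windows of this length, 66.3% hold GGAC on the gene strand and 87.4% on either strand, so these letters do not set the 3 windows apart. The promoter table matched 28 members, and 9 of their 40 windows were touched by a peak.

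The question put to these genes was whether knockdown of the methyltransferase lowered their m6A peaks. Over all members the lists held 38 and 36 peaks in OVCAR8 knockdown against 66 and 64 in control, and the counts were 67 and 68 in SKOV3 knockdown against 71 and 66 in control. LOVO had 78 in the knockdown list against 86 in control, and RKO 67 against 101. The groups did not overlap in OVCAR8 and did in SKOV3. The ratio of knockdown to control was 0.569 for the members in OVCAR8, where all peaks in gene bodies gave 0.549. It was 0.985 against 0.934 for all gene-body peaks in SKOV3, 0.907 against 0.869 in LOVO, and 0.663 against 0.863 in RKO. The members therefore followed the gene-body peaks of their list in 3 lines, and in RKO they fell further, with 1 list per group and no test. Member peaks were of ordinary strength: their median rank within a list lay between 44.1 and 57.6 percent, against 50.2 to 51.2 percent for all gene-body peaks.

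**Figure D1:**
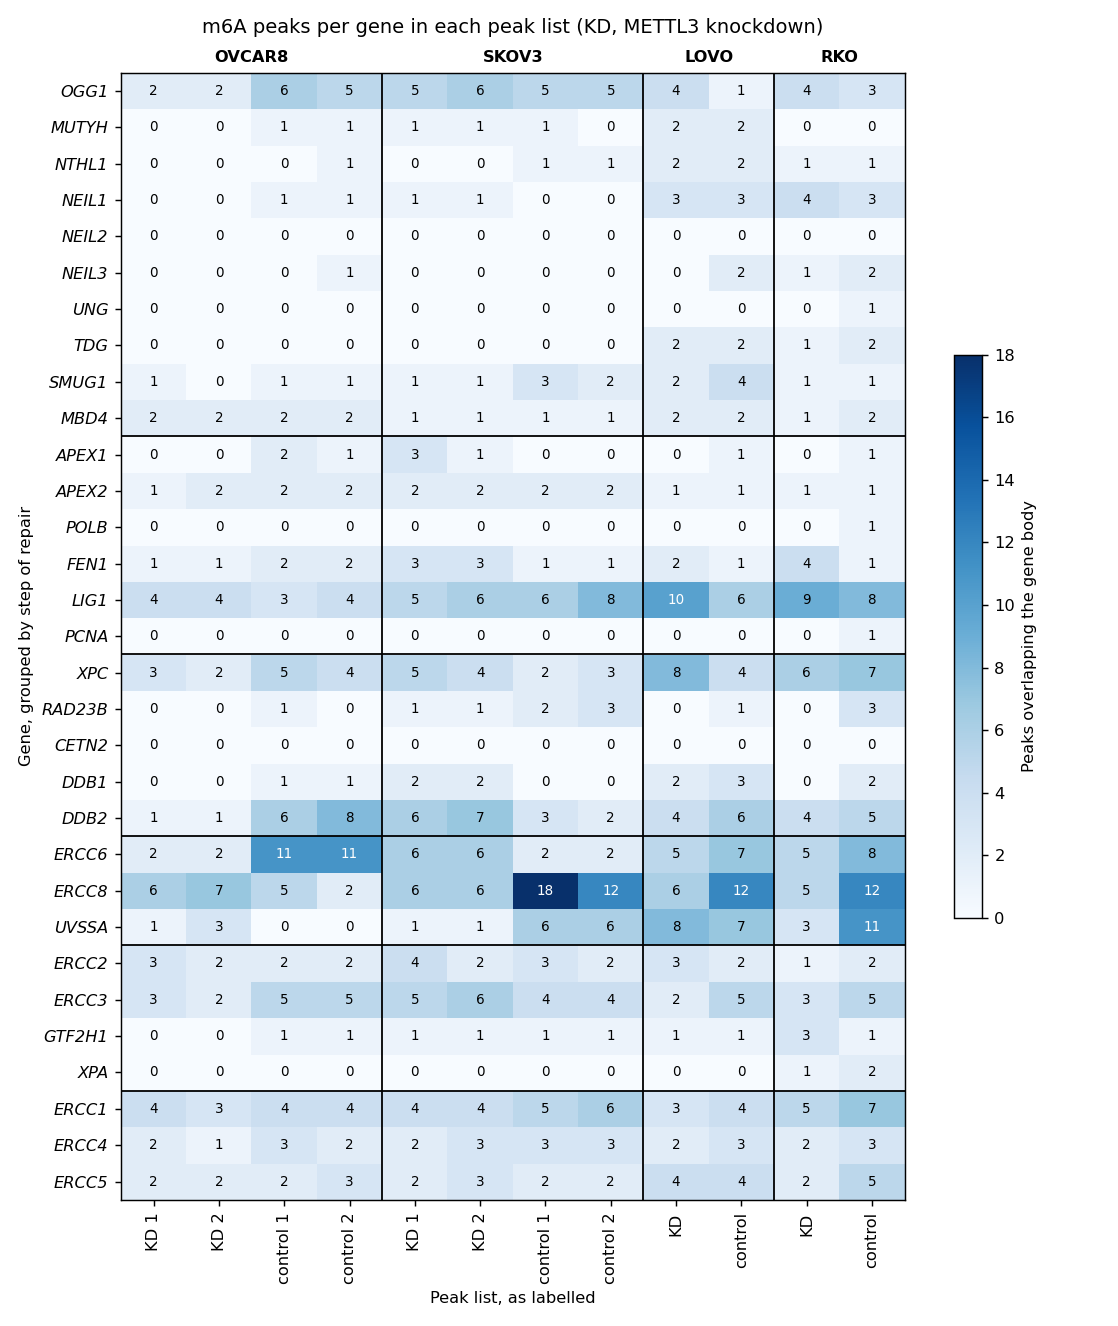
Number of m6A peaks overlapping the body of each of the 31 genes (vertical axis, grouped by step of repair) in each of the 12 lists (horizontal axis, knockdown left of control within each line); colour and digits give the count. ERCC8 reaches 18 in 1 SKOV3 control list, ERCC6 holds 2 and 2 in OVCAR8 knockdown against 11 and 11 in control, and NEIL2 and CETN2 are at 0 in all lists.

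Gene by gene, peaks were compared with an exact permutation test in which list labels were exchanged only inside a line. Its statistic was the knockdown minus control difference in log2(peaks + 1), averaged over the 4 lines. Of the 29 members tested, 22 had a mean difference below 0 and 6 above it, with a median of -0.25, where the median over all 19156 genes tested was -0.125. The shares of all genes below and above 0 were not counted, so the direction of the members cannot be set against them. After Benjamini-Hochberg adjustment over all genes no gene passed in this exact permutation test, and the smallest adjusted p was 1; the exchanges possible allow no p below 0.0139. At an unadjusted p under 0.05, 1.58% of all genes were lower in knockdown and 0.0835% were higher, and of the members 2 were lower and none higher. These were ERCC1 and RAD23B, and neither call holds after adjustment. In OVCAR8, 11 of 24 members with a peak were lower in every knockdown list than in every control list, against 46.3% of all genes, and 2 were higher, against 15.3%. In SKOV3, 6 of 23 were lower against 31.6% of all genes, and 8 were higher against 26.3%. In LOVO, 11 of 25 were lower against 43.1%, and 6 higher against 25.8%. In RKO, 20 of 28 were lower against 46%, and 5 higher against 36.5%. The shares of members lower were near those of all genes in OVCAR8, SKOV3 and LOVO, and in RKO the members' share was 71.4% with 1 list per group. With the ovarian knockdown lists exchanged, 2 of 24 members were lower and 5 higher against OVCAR8 control, where 14.1% and 11.02% of all genes were. Against SKOV3 control 12 of 20 were lower and 1 higher, where 49.4% and 3.48% of all genes were. As labelled, 10 of the 24 members with a peak in an ovarian list were on opposite sides without overlap in OVCAR8 and SKOV3, and 32.9% of all genes with a peak in those lists were.

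Across lines, 8 of the 29 members (27.6%) were lower without overlap in at least 3 lines, and 9.68% of all genes were. These were APEX1, ERCC1, ERCC3, ERCC6, ERCC8, DDB1, DDB2 and RAD23B. FEN1 alone was higher in at least 3 lines as labelled, against 1.44% of all genes. With the ovarian knockdown lists exchanged these were FEN1 and LIG1, against 0.538% of all genes. On the gene strand alone OGG1 took the place of FEN1, against 1.19%, and with equal numbers of peaks per list LIG1 did, against 2.64%. The members carried more peaks than other genes, with a median of 19 over the 12 lists against 10. With the ovarian knockdown lists exchanged, 7 members were lower in at least 3 lines against 8.35% of all genes: ERCC4 joined and APEX1 and DDB1 left. On the gene strand alone 7 were, against 9.71% of all genes, and DDB2 left. With every list reduced to the same number of its strongest peaks the count was 3 of 26, against 3.88% of all genes.

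**Figure D2:**
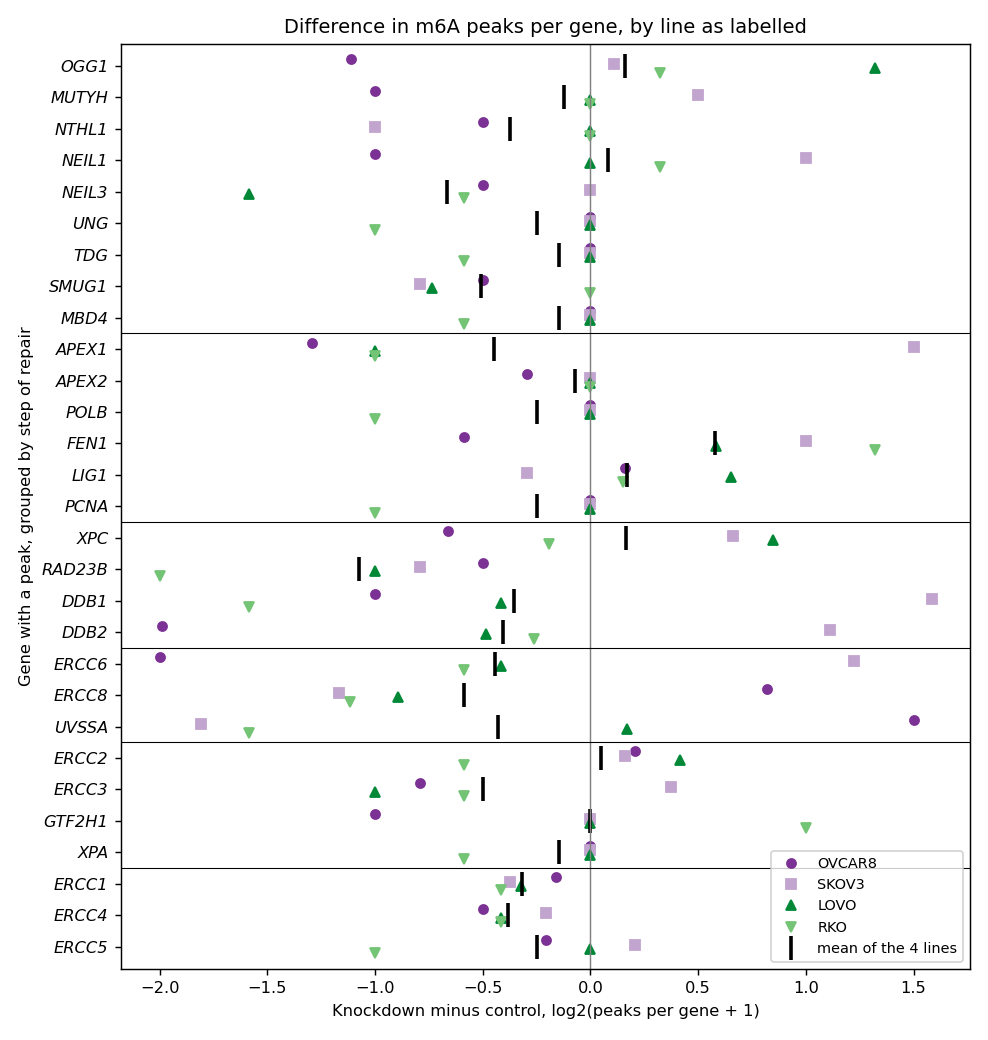
Knockdown minus control difference in log2(peaks per gene + 1) for the 29 genes with a peak (vertical axis, grouped by step of repair), with 1 symbol per line and a black bar at the mean of the 4 lines. ERCC1, ERCC4 and RAD23B lie below 0 in all 4 lines, while ERCC6 and DDB2 lie below 0 in OVCAR8 and above 0 in SKOV3, and ERCC8 and UVSSA the other way.

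Presence of methylated regions was compared next. Same-strand peaks found in every list of a group were merged into regions, and a control region was called lost when no knockdown peak of the line touched it. The members lost 29 of 57 control regions in OVCAR8 (50.9%, 95% Wilson interval 38.3 to 63.4), where 56.7% of all gene-body regions were lost. They lost 20 of 61 in SKOV3 (32.8%, 22.3 to 45.3) against 42.2% of all, 31 of 86 in LOVO (36.0%, 26.7 to 46.6) against 36.9%, and 57 of 101 in RKO (56.4%, 46.7 to 65.7) against 59.6%. The value over all gene-body regions lay within the members' interval in each line. The intervals cover counting error only, and regions of a gene are not independent. Knockdown regions with no control peak were 4 of 30 in OVCAR8 (13.3%, 5.31 to 29.7) against 24.3% of all, 20 of 59 in SKOV3 (33.9%, 23.1 to 46.6) against 35.5%, 23 of 78 in LOVO (29.5%, 20.5 to 40.4) against 26.9%, and 23 of 67 in RKO (34.3%, 24.1 to 46.3) against 51.9%. In RKO the share gained lay below that of all gene bodies, outside the members' counting interval. With the ovarian knockdown lists exchanged the members lost 7.02% of OVCAR8 control regions, against 14.04% of all, and 36.1% of SKOV3 control regions, against 43.2%. Lost control regions of the members ranked lower than kept ones on the median. Their median rank was 54.2 percent in OVCAR8 against 76.8 for kept regions, 45.3 against 66.8 in SKOV3, 46.4 against 60.03 in LOVO and 34.03 against 61.1 in RKO. Lost regions ranked lower over all gene bodies too, at 50.3 percent against 75.0 in OVCAR8, 47.6 against 68.3 in SKOV3, 31.7 against 63.6 in LOVO and 40.2 against 67.5 in RKO.

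**Figure D3:**
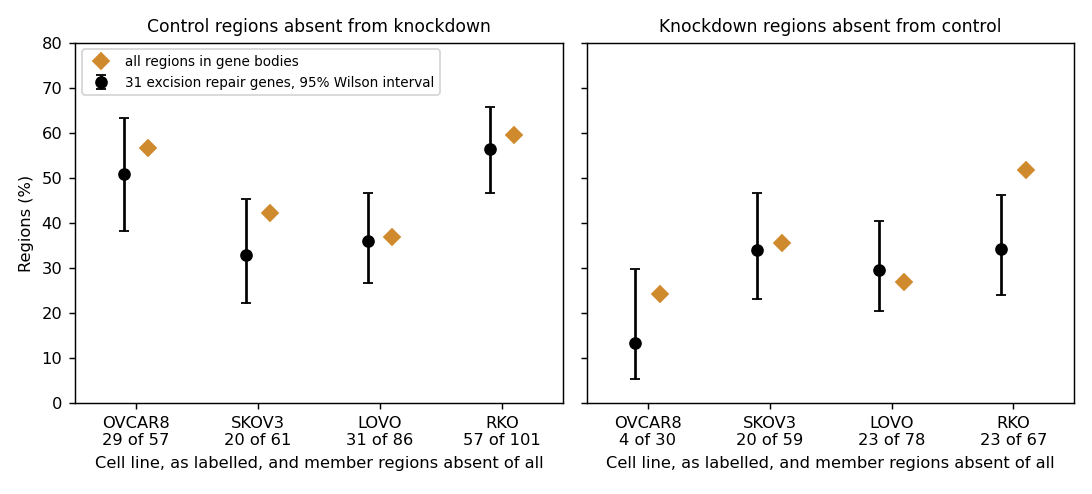
Percent of control regions absent from knockdown (left) and of knockdown regions absent from control (right) in each line, for the 31 genes (black, bars are 95% Wilson intervals for counting error) and for all regions in gene bodies (orange). The orange value lies inside the black interval for loss in all 4 lines and outside it for gain in RKO.

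Grouped by step of repair and pooled over the 4 lines, the factors that recognise stalled polymerase lost the largest share of control regions among the 6 groups. ERCC6, ERCC8 and UVSSA together lost 53 of 90 (58.9%), all 31 members lost 137 of 305, and 48.9% of all gene-body regions were lost. Line by line these factors had the largest share in SKOV3 (12 of 20) and RKO (21 of 31). In OVCAR8 they lost 9 of 13 and the glycosylases 7 of 10, and in LOVO the order was another as well. Their summed peaks were 9 and 12 in OVCAR8 knockdown against 16 and 13 in control, 13 and 13 in SKOV3 knockdown against 26 and 20, 19 against 26 in LOVO and 13 against 31 in RKO. The knockdown lists were lower without overlap in each line as labelled, as they were for all peaks in gene bodies, and with the ovarian knockdown lists exchanged they overlapped in OVCAR8. Against this, the 3 nucleases lost 12 of 44, the opening and verification factors 13 of 32, the glycosylases 23 of 52, the later base excision factors 14 of 39 and the factors that scan the whole genome 22 of 48. With the ovarian knockdown lists exchanged the polymerase factors lost 42 of 90 and the nucleases 12 of 44, the largest and the smallest pooled share of the 6. The LOVO and RKO regions in these counts are the same either way, and no exchanged share was pooled over all gene bodies. Exchanged, the polymerase factors lost 3 of 13 in OVCAR8, against 14.04% of all gene-body regions. In SKOV3 they lost 7 of 20, against 43.2% of all, and the glycosylases lost 5 of 9. In LOVO, whose knockdown list shared most of its member peaks with LOVO control, the polymerase factors lost 11 of 26, the opening and verification factors 4 of 8 and the glycosylases 8 of 18. None of these orders was tested. Across the 31 genes, which are not independent replicates, control peaks and gene length correlated with a Spearman rho of 0.56 and a Pearson r of 0.70.

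ERCC6 encodes CSB, the ATPase that binds stalled RNA polymerase II and starts transcription-coupled repair (chr10:49434881-49539538, minus strand). It held 2 and 2 peaks in OVCAR8 knockdown against 11 and 11 in control. It held 6 and 6 in SKOV3 knockdown against 2 and 2 in control, 5 against 7 in LOVO and 5 against 8 in RKO. Knockdown was thus lower in 3 lines and higher in SKOV3, the groups did not overlap in any line, and the mean log2 difference was -0.44 with an unadjusted exact permutation p of 0.292 (adjusted p = 1). The peaks fell on 12 places in the gene, of which 2 were marked in all 12 lists. Of 10 places marked in both OVCAR8 control lists, 2 were marked in any OVCAR8 knockdown list, 2 in any SKOV3 control list and 7 in any SKOV3 knockdown list. The place at chr10:49523744-49524830 ranked between the 77.4th and the 99.9th percentile of peak strength in all lists. The gene overlaps the RefSeq entries PGBD3 and HSPD1P17.

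ERCC8 encodes CSA, the substrate receptor of the ubiquitin ligase that acts beside CSB (chr5:60866454-60945070, minus strand). It was the member with most peaks, 6 and 7 in OVCAR8 knockdown against 5 and 2 in control. SKOV3 had 6 and 6 in knockdown against 18 and 12 in control, LOVO 6 against 12 and RKO 5 against 12. Knockdown was lower in 3 lines and higher in OVCAR8, without overlap in any line, with a mean log2 difference of -0.59 and an unadjusted exact permutation p of 0.194 (adjusted p = 1). It lost 7 of 12 control regions in SKOV3, 6 of 12 in LOVO, 8 of 12 in RKO and 0 of 2 in OVCAR8. Of 12 places marked in both SKOV3 control lists, 5 were marked in any SKOV3 knockdown list, 5 in any OVCAR8 control list and 8 in any OVCAR8 knockdown list. The places marked in all 12 lists were chr5:60878760-60879882 and chr5:60891680-60893443.

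UVSSA brings the deubiquitinase USP7 to the stalled complex (chr4:1342011-1395989, plus strand). It held 1 and 3 peaks in OVCAR8 knockdown against 0 and 0 in control, and 1 and 1 in SKOV3 knockdown against 6 and 6 in control. LOVO had 8 in knockdown against 7 in control, and RKO 3 against 11. The groups did not overlap in any line, 2 lines were higher and 2 lower, and the unadjusted exact permutation p was 0.514 (adjusted p = 1). No place in UVSSA was marked in all lists, 7 of its 12 places were marked in colorectal lists alone, and RKO lost 8 of 11 control regions.

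**Figure D4:**
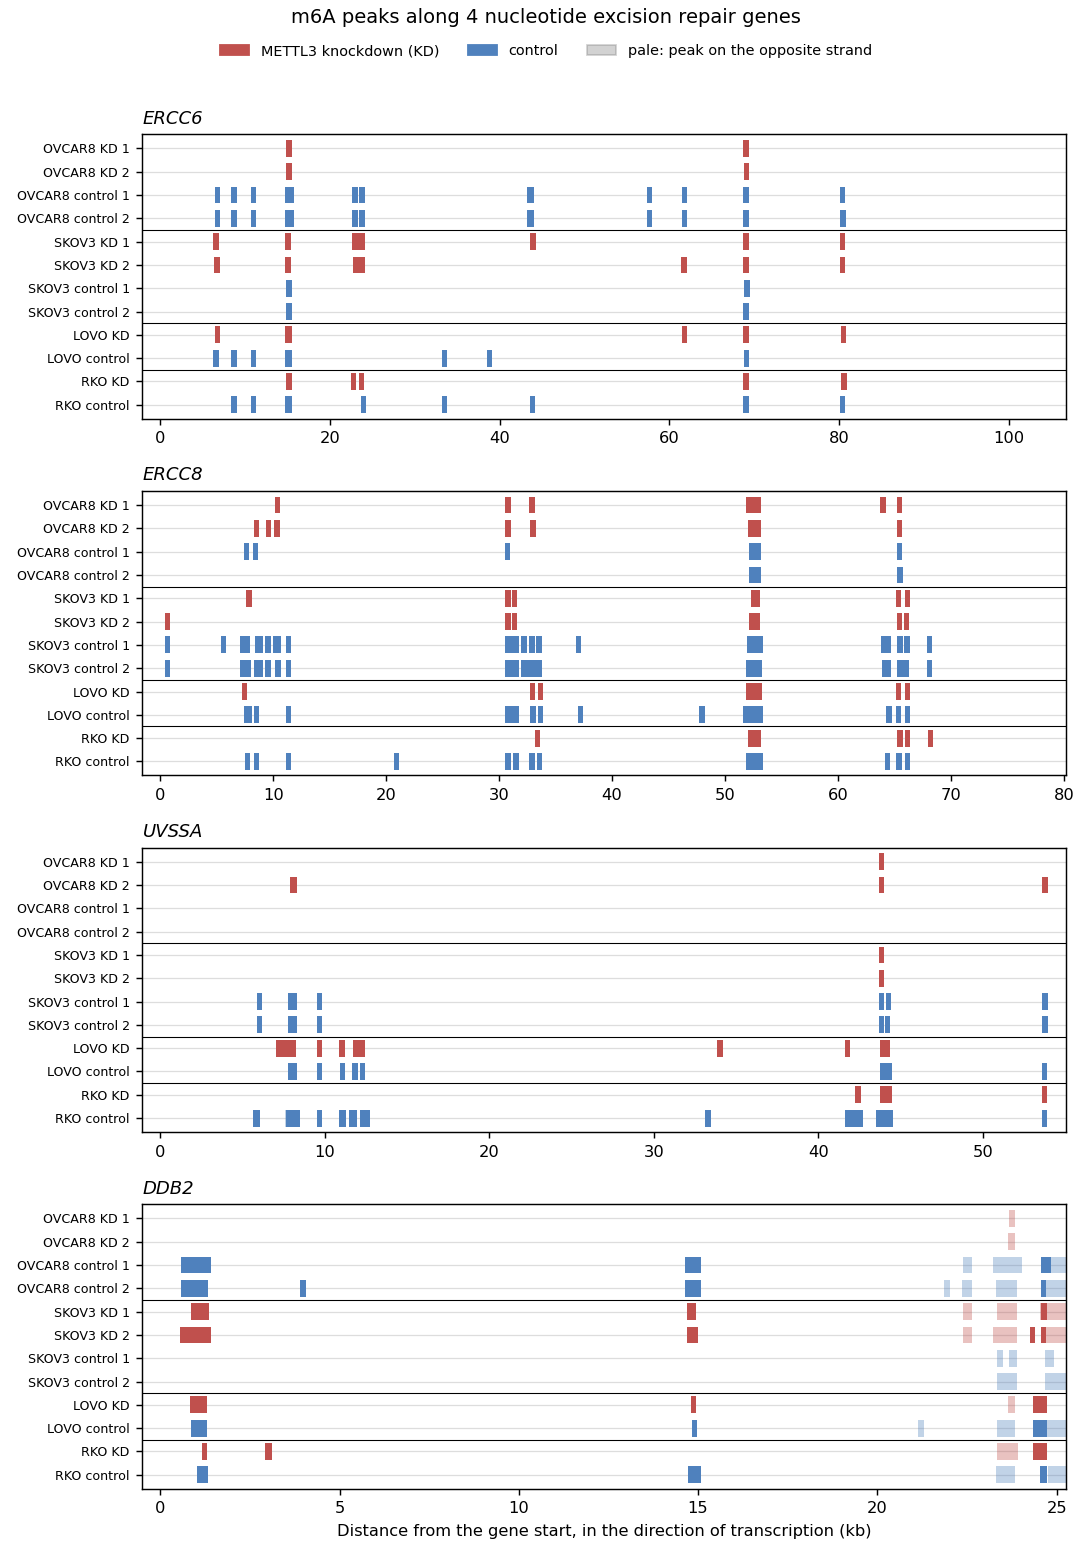
Peaks along ERCC6, ERCC8, UVSSA and DDB2 (horizontal axis, kb from the gene start in the direction of transcription) in each list (rows, knockdown above control within a line), in red for knockdown and blue for control, pale for the opposite strand; narrow peaks are widened to a minimum visible width. ERCC6 shows 2 places marked in all 12 lists, and the OVCAR8 control lists share further places with the lists labelled SKOV3 knockdown.

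Among the factors that scan the genome, RAD23B, which stabilises XPC (chr9:107283279-107332194, plus strand), held few peaks. Its counts were 0 and 0 in OVCAR8 knockdown against 1 and 0 in control, 1 and 1 in SKOV3 knockdown against 2 and 3, 0 against 1 in LOVO and 0 against 3 in RKO. The mean log2 difference was -1.07, below 0 in 4 of 4 lines, with an unadjusted exact permutation p of 0.0417 (adjusted p = 1). The groups did not overlap in SKOV3, LOVO and RKO and did in OVCAR8. All 6 of its control regions were lost, 2 in SKOV3, 1 in LOVO and 3 in RKO, none of its 7 places was marked in more than 2 lists, and with equal numbers of peaks per list the difference was 0.125.

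DDB2, the subunit of the DDB complex that binds photoproducts (chr11:47214454-47239217, plus strand), held 1 and 1 peaks in OVCAR8 knockdown against 6 and 8 in control. It held 6 and 7 in SKOV3 knockdown against 3 and 2, 4 against 6 in LOVO and 4 against 5 in RKO. The groups did not overlap in any line, and the mean log2 difference was -0.41 (unadjusted exact permutation p = 0.278, adjusted p = 1). Of its 53 calls over the lists 27 lay on the opposite strand. Both merged places marked in all 12 lists lay on that strand too, at chr11:47237684-47238495 and chr11:47238976-47240089. The second runs past the gene end into ACP2, which starts 84 bases further on. In the OVCAR8, LOVO and RKO knockdown lists it was marked only by peaks beyond the gene end, which are not among the 53 calls. The opposite-strand calls cannot be assigned to DDB2 RNA. With gene-strand calls alone DDB2 held 0 and 0 peaks in OVCAR8 knockdown against 3 and 4 in control, 3 and 4 in SKOV3 knockdown against 0 and 0, and 3 against 3 in both LOVO and RKO, so that it was lower in OVCAR8 alone. All 6 places marked in both OVCAR8 control lists were marked in SKOV3 knockdown, and 2 of them in OVCAR8 knockdown, counting the place marked there only beyond the gene end.

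DDB1, the adaptor that joins DDB2 or CSA to the CUL4 ligase (chr11:61299451-61333105, minus strand), held 0 and 0 peaks in OVCAR8 knockdown against 1 and 1 in control, 2 and 2 in SKOV3 knockdown against 0 and 0, 2 against 3 in LOVO and 0 against 2 in RKO. All of them fell on 1 place. XPC, which senses the distorted helix (chr3:14145147-14178601, minus strand), held 3 and 2 in OVCAR8 knockdown against 5 and 4 in control and 5 and 4 in SKOV3 knockdown against 2 and 3. LOVO had 8 in knockdown against 4 in control and RKO 6 against 7. It was lower in 2 lines and higher in 2, without overlap (mean log2 difference 0.16, unadjusted exact permutation p = 0.667, adjusted p = 1). XPC held 12 places, 8 of them in colorectal lists alone, and 1, the merged place at chr3:14177841-14178633, in all 12 lists. That place reaches across the gene start printed above, but the LOVO peaks in it stopped short of the printed window. CETN2, the centrin that binds XPC, held no peak in any list.

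Of the TFIIH helicases, ERCC3, the XPB translocase that opens DNA around the lesion (chr2:127257290-127294144, minus strand), held 3 and 2 peaks in OVCAR8 knockdown against 5 and 5 in control, and 5 and 6 in SKOV3 knockdown against 4 and 4. LOVO had 2 in knockdown against 5 in control and RKO 3 against 5. Knockdown was lower in 3 lines and higher in SKOV3, without overlap (mean log2 difference -0.50, unadjusted exact permutation p = 0.111, adjusted p = 1). ERCC2, the XPD helicase that verifies the lesion (chr19:45349837-45370573, minus strand), held 3 and 2 in OVCAR8 knockdown against 2 and 2 in control, and 4 and 2 in SKOV3 knockdown against 3 and 2. LOVO had 3 against 2 and RKO 1 against 2, a difference of 1 peak in each. GTF2H1, a core subunit of TFIIH, held between 0 and 3 peaks per list, and XPA, which binds the opened DNA, was marked in RKO alone, with 1 peak in knockdown against 2 in control.

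Pooled over the lines, the nuclease genes lost the smallest share of regions among the 6 groups, but line by line they did so in OVCAR8 alone. They lost 2 of 10 in SKOV3, where the opening and verification factors lost 0 of 7 and the later base excision factors 1 of 9. They lost 3 of 11 in LOVO, where the later base excision factors lost 2 of 9 and the factors that scan the genome 3 of 14, and 7 of 15 in RKO, where the glycosylases lost 5 of 15. ERCC1, the partner of XPF in the cut 5′ of the lesion (chr19:45407334-45451547, minus strand), held 4 and 3 peaks in OVCAR8 knockdown against 4 and 4 in control. It held 4 and 4 in SKOV3 knockdown against 5 and 6, 3 against 4 in LOVO and 5 against 7 in RKO. The mean log2 difference was -0.32, below 0 in 4 of 4 lines, with an unadjusted exact permutation p of 0.0417 (adjusted p = 1). The groups overlapped in OVCAR8, and with peaks scaled to the total of each list the difference was -0.04. Of its 53 calls 12 lay on the opposite strand, within POLR1G, which overlaps it. ERCC4, the XPF nuclease itself (chr16:13920154-13952348, plus strand), held 2 and 1 in OVCAR8 knockdown against 3 and 2 in control and 2 and 3 in SKOV3 knockdown against 3 and 3, with 2 against 3 in both LOVO and RKO. ERCC5, the XPG nuclease that cuts on the other side (chr13:102846032-102875995, plus strand), held 2 and 2 in OVCAR8 knockdown against 2 and 3 in control and 2 and 3 in SKOV3 knockdown against 2 and 2. LOVO had 4 in both lists, and RKO had 2 in knockdown against 5 in control. OVCAR8 lost 0 of the 8 control regions of the 3 nuclease genes. ERCC4 kept 1 place and ERCC5 2 places in all 12 lists, and the ERCC4 place ranked between the 85.6th and the 97.5th percentile of peak strength in every list.

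In base excision repair, OGG1, the glycosylase for 8-oxoguanine (chr3:9749952-9791070, plus strand), was the most marked of its class. It held 2 and 2 peaks in OVCAR8 knockdown against 6 and 5 in control, and 5 and 6 in SKOV3 knockdown against 5 and 5. LOVO had 4 in knockdown against 1 in control and RKO 4 against 3. Knockdown was lower in OVCAR8, higher in LOVO and RKO and overlapped control in SKOV3 (mean log2 difference 0.16, unadjusted exact permutation p = 0.875, adjusted p = 1). The merged place over its start, chr3:9749248-9750566, was marked in all 12 lists, though not over the same bases in each. In LOVO control the peak in it lay wholly before the printed window, outside the gene, and is not among the calls of OGG1. OGG1 overlaps CAMK1 and TADA3, and 11 of its 48 calls lay on the opposite strand. With gene-strand calls alone it held 2 and 2 peaks in OVCAR8 knockdown against 5 and 4 in control, 5 and 5 in SKOV3 knockdown against 4 and 4, 2 against 0 in LOVO and 3 against 1 in RKO. By those calls it was higher without overlap in 3 lines.

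The other glycosylases held between 0 and 4 peaks per list. MBD4, which acts on mismatches at CpG sites, was marked in all 12 lists with 1 or 2 peaks. SMUG1, a uracil glycosylase, was marked in 11 lists and lost 6 of 8 control regions. NEIL1, which removes oxidised pyrimidines, was marked in 8 lists, and MUTYH, which removes adenine opposite 8-oxoguanine, and NTHL1, another glycosylase for oxidised pyrimidines, were marked in 7 each. On the gene strand alone NEIL1 was marked in the 4 colorectal lists and in no ovarian list, and MUTYH in the 2 LOVO lists alone. TDG, which removes thymine and the oxidised forms of 5-methylcytosine, was marked in the 4 colorectal lists and in no ovarian list, with 2 peaks against 2 in LOVO and 1 against 2 in RKO. NEIL3, a glycosylase of single-stranded DNA, was marked in 4 lists, and UNG, the main uracil glycosylase, in RKO control alone with 1 peak. NEIL2 held no peak in any list.

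Of the later factors, FEN1, the flap endonuclease of long-patch repair and of replication (chr11:61792911-61797238, plus strand), was the 1 member that was higher in 3 lines as labelled with both strands counted. It held 1 and 1 peaks in OVCAR8 knockdown against 2 and 2 in control, 3 and 3 in SKOV3 knockdown against 1 and 1, 2 against 1 in LOVO and 4 against 1 in RKO. The mean log2 difference was 0.58, with an unadjusted exact permutation p of 0.153 (adjusted p = 1). The place at chr11:61795269-61797116 was marked in all 12 lists, and 7 of the 22 calls lay on the opposite strand; on the gene strand alone FEN1 was not higher in 3 lines.

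LIG1, the ligase that seals long-patch repair and replication nicks (chr19:48115445-48170344, minus strand), held 4 and 4 peaks in OVCAR8 knockdown against 3 and 4 in control and 5 and 6 in SKOV3 knockdown against 6 and 8. LOVO had 10 in knockdown against 6 in control, and RKO 9 against 8. It was higher in both colorectal lines and overlapped in both ovarian lines (mean log2 difference 0.17, unadjusted exact permutation p = 0.50, adjusted p = 1). LIG1 lost 8 of 23 control regions over the lines, where 48.9% of all gene-body regions were lost. It was the 1 member with a lost region in all 4 lines, and the share of all genes with such a loss was not counted. Of its 17 places 9 were marked in colorectal lists alone and 6 in a single list, and chr19:48138854-48140073 was marked in all 12.

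APEX1, the main abasic endonuclease (chr14:20455226-20457767, plus strand), held 0 and 0 peaks in OVCAR8 knockdown against 2 and 1 in control, 3 and 1 in SKOV3 knockdown against 0 and 0, and 0 against 1 in both LOVO and RKO. All 3 of its control regions were lost. Its relative APEX2 held 1 or 2 peaks in every list and lost none of 6 control regions. POLB, the polymerase of short-patch repair, and PCNA, the sliding clamp, held 1 peak each, both in RKO control. RKO control was the list with most members marked, 28 against 22 in RKO knockdown. It was also the list with most peaks in gene bodies, 35486 against 30608 in RKO knockdown. The share of all genes marked in each list was not counted. UNG, POLB and PCNA were marked there and nowhere else, by 1 peak each.

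Per length, control peaks were densest in the short genes APEX1 and FEN1, with 3.44 and 2.89 per 10 kb on the mean of the 4 lines, and DDB2 held 2.07. Density was 1.35 per 10 kb in ERCC8 and 0.669 in ERCC6, and low in RAD23B at 0.358, GTF2H1 at 0.225 and NEIL3 at 0.183. Merged over all lists, the peaks fell on 161 places, of which 18 in 13 genes were marked in all 12 lists (11.2%, against 5.84% of 78607 places in gene bodies). A single list marked 42 of them (26.1%, against 36.3%). A place counted as marked when a peak touched any part of it, including parts outside the gene, as in DDB2 and OGG1. Of the 161 places, 60 were marked in colorectal lists alone and 19 in ovarian lists alone, and these include the places of a single list. This split was not counted over all gene bodies, and each colorectal list held more peaks than any ovarian list. No place was marked in every control list and in no knockdown list, and none the other way round. On the gene strand, 43 of 137 places lay in the first 20% of the gene length, against 19 in the last 20%. A place centred outside the gene was counted at its nearer end. Positions along the gene were not counted over all gene bodies, so these numbers do not set the members apart. Of the calls in members with a known strand 10.01% were on the opposite strand, and 20 members overlap another RefSeq gene.

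The other genes of these pathways, a list of 48 polymerase, clamp loader, ligase-complex, TFIIH and ubiquitin ligase subunits and single-strand break factors, were counted in the same way. Of 47 matched by symbol, 42 had a peak, 31 with a mean difference below 0 and 5 above, with a median of -0.19. The median over all genes tested was -0.125, and the shares of all genes below and above 0 were not counted. At an unadjusted exact permutation p under 0.05, 1 was lower and 0 higher, and none passed adjustment over all genes. That gene was RPA1, the large subunit of the single-strand DNA binding complex, with 0 and 0 peaks in OVCAR8 knockdown against 1 and 1 in control, 1 and 1 in SKOV3 knockdown against 2 and 1, 0 against 3 in LOVO and 1 against 2 in RKO (mean log2 difference -0.97, unadjusted exact permutation p = 0.0417, adjusted p = 1). Of the 4 genes with most control peaks, POLE and CUL4A were lower in OVCAR8 knockdown and higher in SKOV3 knockdown as labelled. POLE, the catalytic subunit of polymerase epsilon, held 6 and 6 in OVCAR8 knockdown against 13 and 11 in control and 13 and 15 in SKOV3 knockdown against 8 and 8, with 6 in both LOVO lists and 3 against 5 in RKO. CUL4A, the scaffold of the DDB ligase, held 3 and 4 against 12 and 11 in OVCAR8, 7 and 7 against 3 and 3 in SKOV3, 7 in both LOVO lists and 3 against 8 in RKO. MNAT1, a subunit of the TFIIH kinase, held 3 and 2 in OVCAR8 knockdown against 2 and 2 in control, 2 and 2 against 10 and 8 in SKOV3, 5 against 7 in LOVO and 4 against 8 in RKO. LIG3, the ligase that works with XRCC1, held 1 and 1 against 4 and 3 in OVCAR8, 2 and 5 against 3 and 4 in SKOV3, 4 against 7 in LOVO and 6 in both RKO lists.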

How the data were processed

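MeRIP-seq peak lists of chromatin-associated RNA were used, 12 in all, from 16 MeRIP libraries; 16 input libraries and spike-in RNA were not used here. The submitters' processing notes name build hg38 and the tools MACS2 2.2.7.1, HISAT2 2.1.0, Bowtie2 2.4.2 and Trim Galore 0.6.6, with no role given. For OVCAR8 and SKOV3 the authors deposited 1 list per library with a fold (ratio) and −log10 p and q-values per peak. Each LOVO or RKO group has 1 list deposited by the authors, with a score for every peak that no header explains; how its libraries were combined is not stated. These values served only to rank or filter peaks within a list. Ovarian peaks were ranked by −log10 p, and the stricter peak threshold kept those with a −log10 q of at least 5. For LOVO and RKO the score served for both, with the same threshold of 5. Depth was not estimated here, so counts of peaks carry the depth of their library.

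Peaks on chromosomes 1 to 22 and X were assigned to RefSeq gene bodies of GRCh38.p14, a peak counting for each gene it touched; 3 members have no strand in the tables and exons are not in them. Peaks per gene were compared by permuting labels within lines (exact, two-sided), a procedure tested on simulated data first, with Benjamini-Hochberg adjustment over all genes. Groups followed the labels. Python 3.11.15, numpy 2.4.6, pandas 2.3.3 and scipy 1.17.1 were used. The members and lists were chosen with earlier results of these data known. Values in every list are given for the 12 members with most control peaks, those on one side of control in at least 3 lines and those with an unadjusted p under 0.05; the 4 pathway genes with most control peaks and any with such a p are named too.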

Additional observations from a re-analysis of the deposited data

Results flagged for a closer look

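In 10 of the 24 members with a peak in an ovarian list, every knockdown list lay on one side of every control list in OVCAR8 and on the other side in SKOV3. This opposite movement was seen in the lists as labelled, and the difference between the lines was not tested. Of all genes with a peak in an ovarian list, 32.9% moved in this way. The values are the OVCAR8 difference minus the SKOV3 difference, each knockdown minus control in log2(peaks + 1). Knockdown was lower in OVCAR8 and higher in SKOV3 for ERCC6 (-3.22), DDB2 (-3.10), APEX1 (-2.79), DDB1 (-2.58), NEIL1 (-2), FEN1 (-1.58), XPC (-1.32) and ERCC3 (-1.17). It was higher in OVCAR8 and lower in SKOV3 for UVSSA (3.31) and ERCC8 (1.99). On the gene strand alone NEIL1 held no peak in any ovarian list and FEN1 held 1 and 1 in OVCAR8 knockdown against 1 and 1 in control, so that their opposite movement rests on calls of the other strand. With gene-strand calls alone, an alternative chosen after seeing the data, 9 of 22 members moved in opposite directions, OGG1 among them, against 32.7% of all genes. In the same lists the member peaks labelled OVCAR8 knockdown were shared at 96.0% with SKOV3 control, and those labelled SKOV3 knockdown at 78.9% with OVCAR8 control. With the ovarian knockdown lists exchanged, 2 members were lower and 5 higher in OVCAR8, and 12 lower and 1 higher in SKOV3.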

How the results depend on the processing

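The loss of member regions in OVCAR8 was 50.9% and, under the alternatives, 56.2% with regions of any control list, 56.1% where absence from 1 knockdown list sufficed, 57.9% where 50% of a region had to be covered, 39.4% with equal numbers of peaks per list, 49.0% on the gene strand and 57.1% in regions of 1 gene alone, and between 52.6% and 54.7% without each replicate in turn; it was 7.02% against the knockdown lists of the other ovarian line. Over all gene-body regions in OVCAR8 the same alternatives gave 62.8%, 62.5%, 63.8%, 43.1%, 56.1% and 57.1%, in that order. They gave 59.2% to 60.5% without each replicate and 14.04% against the other line's knockdown lists. In SKOV3 the loss of member regions was 32.8%, with the share of all gene-body regions in brackets below. It became 40% with any control list (46.6%), 42.6% with 1 knockdown list (48.4%) and 39.4% with equal numbers (40.6%). In 1 gene alone it was 38.8% (42.1%), and without each replicate 34.4% to 40.98% (44.6% to 45.9%). In LOVO the loss of member regions was 36.0% and became 50% at the stricter peak threshold, where all gene-body regions gave 43.9%. The RKO value stayed within its interval in all 5 alternatives, 48.2% to 62.4%, where all gene-body regions gave 51.6% to 66.4%. The 2 members at an unadjusted p under 0.05 became 1 with peaks scaled to each list's total and 1 in regions of 1 gene alone, 0 with the ovarian lists as 1 stratum, 0 without RKO, 0 with equal numbers of peaks, and 1 to 4 without each replicate, and the replicate block gave 0. The block exchanged labels only between same-numbered lists. Deviations of same-numbered lists correlated at 0.018 in OVCAR8 and 0.0082 in SKOV3 across genes. With few peaks per gene these values cannot decide whether same-numbered lists were paired, so the block stands as an alternative. With equal numbers of peaks the ERCC1 difference was 0.064 and that of RAD23B 0.125, both the reverse of the reported direction; the cause was not tested. Scaling to each list's total put the median of all genes at 0.0059, from which 949 genes passed an unadjusted p under 0.05 against 318 without scaling, and equal numbers of peaks left 96. The 8 members lower in at least 3 lines became 3 with equal numbers of peaks and 8 to 10 without each replicate, alternatives chosen after seeing the data. Few peaks per gene limit the precision: a change of 1 peak moves most members' values.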
